A study of Homo sapiens with 6 samples.

Results

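The 7 genes described here, TPT1, NACA, BTF3, RACK1, PABPC1, NPM1 and NAP1L1, encode 5′TOP mRNAs whose products are not proteins of the ribosome itself. They were taken by gene name from the 10072 genes of the count table, where they held 101 of the 21472 transcript models. Counts of long cDNA reads were compared in 6 libraries of Calu-6, an established human lung carcinoma line that the labels give as wild type. The 3 siControl libraries came from cells that received a non-silencing siRNA (10 nM, 48 h), and the 3 siDelta2-4 libraries from cells given the same dose, for the same time, of an siRNA against the junction of exon 1 and exon 5 in TERT Delta 2-4, a splice variant of telomerase reverse transcriptase. Libraries are numbered 1 to 3 within a group as the count columns number them. The study's methods and the column names describe the cells as a Calu-6 line that stably carries an empty Flag-V5 vector, whereas the labels give a wild-type genotype, and all 6 libraries share this background. The study calls its libraries biological replicates, but the labels do not tie them to separate cultures, so the p-values measure the spread between these libraries.

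A 5′TOP mRNA begins with a C at its cap, followed by an uninterrupted run of pyrimidines, the terminal oligopyrimidine tract. Through this tract the mTORC1 kinase pathway, with the binding protein LARP1, controls how strongly such mRNAs are translated and how well they are kept when growth signals fall. Most of the class encodes ribosomal proteins and elongation factors, and the genes described here are among those that encode other proteins. Counts of RNA measure the amount of an mRNA and do not measure its translation.

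The start of each mRNA is shown because the tract is what puts these genes in 1 class. The sequences are from RefSeq (GRCh38.p14), on the strand of the gene, from 10 bases before the annotated start through its first 20 transcribed bases, and capitals mark the pyrimidine run that begins at the start.
TPT1, chr13:45341164-45341193, minus strand: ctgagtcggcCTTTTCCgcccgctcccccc
NACA, chr12:56725280-56725309, minus strand: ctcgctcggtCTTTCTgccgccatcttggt
BTF3, chr5:73498432-73498461, plus strand: cttccggcctCCCTTTagctgccatcttgc
RACK1, chr5:181243887-181243916, minus strand: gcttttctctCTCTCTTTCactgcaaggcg
NPM1, chr5:171387839-171387868, plus strand: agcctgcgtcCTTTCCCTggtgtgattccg
NAP1L1, chr12:76084666-76084695, minus strand: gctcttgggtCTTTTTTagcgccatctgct
PABPC1 is named only.

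All 6 starts had a C as the base at position 1, with a run of 6 to 9 pyrimidines. NACA and BTF3 had the shortest runs (6 bases each), TPT1 and NAP1L1 had 7 bases each, NPM1 had 8 and RACK1 had the longest (9). The run was read on the strand of the gene only, as a C at the start and C or T at every base after it, with at least 5 bases in all. Such a run was present at 4.07% of the 35116 RefSeq starts and at 6.62% of the 5426 counted genes with a RefSeq start. It was present at 49 of 70 starts of cytosolic ribosomal protein genes, at 9 of 11 starts of the other 5′TOP genes outside the ribosome, and at 0 of 16 starts of regulators of these mRNAs. RefSeq and Gencode starts were the same base for TPT1-212, NPM1-201 and NAP1L1-215, the most counted annotated transcripts of their genes. The RefSeq start of RACK1 (base 181243906) lay upstream of that of RACK1-210 (base 181243889), and the RefSeq start of NACA lay 1898 bases downstream of that of NACA-201. The deposited table gives no read ends, so whether the counted reads reached the tract was not tested.

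**Figure D1:**
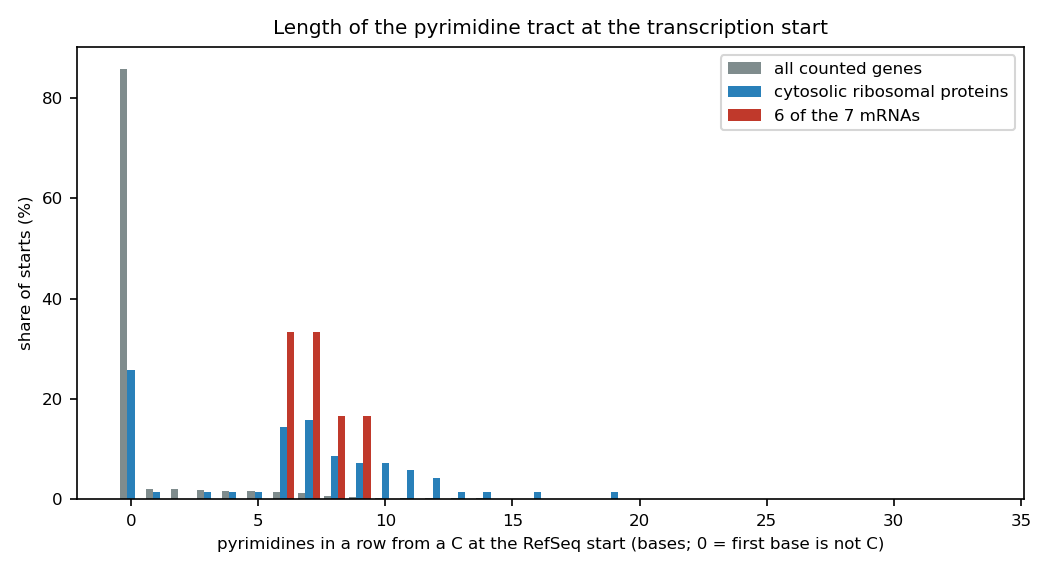
Share of RefSeq starts (%) by the number of pyrimidines in a row from a C at the start, for all counted genes, cytosolic ribosomal proteins and the 6 mRNAs with an entry in the set of RefSeq starts used here. The 6 mRNAs lie at 6 to 9 bases, whereas most counted genes lie at 0 because their start is not a C.

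The libraries held 1037468 to 1309241 counts. Epithelial keratins were counted in every library (KRT8 at 114 to 171 counts and KRT18 at 162 to 231), as was the mesenchymal gene VIM (130 to 206), while EPCAM had 13 counts over all 6 libraries, KRT19 had 1, and CDH1, the lung genes NKX2-1 and SFTPB, and the leukocyte, endothelial and fibroblast markers PTPRC, PECAM1 and COL1A1 had 0. TERT is not analysed here, so the knockdown was not checked. The siControl library 3 stood apart from its group: the rank correlation of model length with a gene's deviation from its mean over the libraries, taken across genes, was -0.318, -0.326 and 0.123 in siControl libraries 1 to 3 and 0.137, 0.362 and 0.145 in siDelta2-4 libraries 1 to 3. Several values below are therefore also given without this library. In that fit the remaining siControl libraries had negative correlations and the siDelta2-4 libraries positive ones, so length trend and treatment cannot be told apart. It called 1041 genes at an adjusted p under 0.1 (edgeR), against 504 with all 6 libraries. The stronger values without this library carry that limit. With all 6 libraries the limit applied in part. The siControl library 3 was the only library of its group with a positive correlation (0.123), and every siDelta2-4 library had one. Whether the fold changes below came from the treatment or from the length trend was not tested. For several genes, values with the length trend removed are also given.

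Of the 7 mRNAs, NPM1 and NAP1L1 were higher in siDelta2-4, by 1.31-fold and 1.62-fold, and the other 5 did not pass the test. Across all 3888 genes tested with edgeR's quasi-likelihood test, 13.0% were called at an adjusted p under 0.1, 7.0% as higher and 5.97% as lower, against 2 of 7 here. The median log2 fold change was 0.04 over the 7 mRNAs and 0.027 over all tested genes. Of the 7 values 5 were above 0, as were 2094 of all 3888. Together the 7 mRNAs held 0.700%, 0.702% and 0.768% of the counts in siControl libraries 1 to 3 and 0.803%, 0.801% and 0.793% in siDelta2-4. The groups did not overlap in this summed share, which was 0.724% ± 0.0386 in siControl and 0.799% ± 0.0052 in siDelta2-4 (mean ± SD, n = 3), and no test was made of it. The share is of raw totals, on which the median log2 fold change of all tested genes was also above 0 (0.095, against 0.027 after TMM scaling). How much of the rise in the share was common to the tested genes was not tested. As a share of annotated-model counts alone the groups overlapped, with 1.316% in siControl library 3 and 1.311% in siDelta2-4 library 1. All levels below are CPM, that is, counts scaled to a common library size after TMM correction of the totals. RNA came from whole cell pellets, so fewer cells with an mRNA and less of it per cell cannot be told apart.

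**Figure D2:**
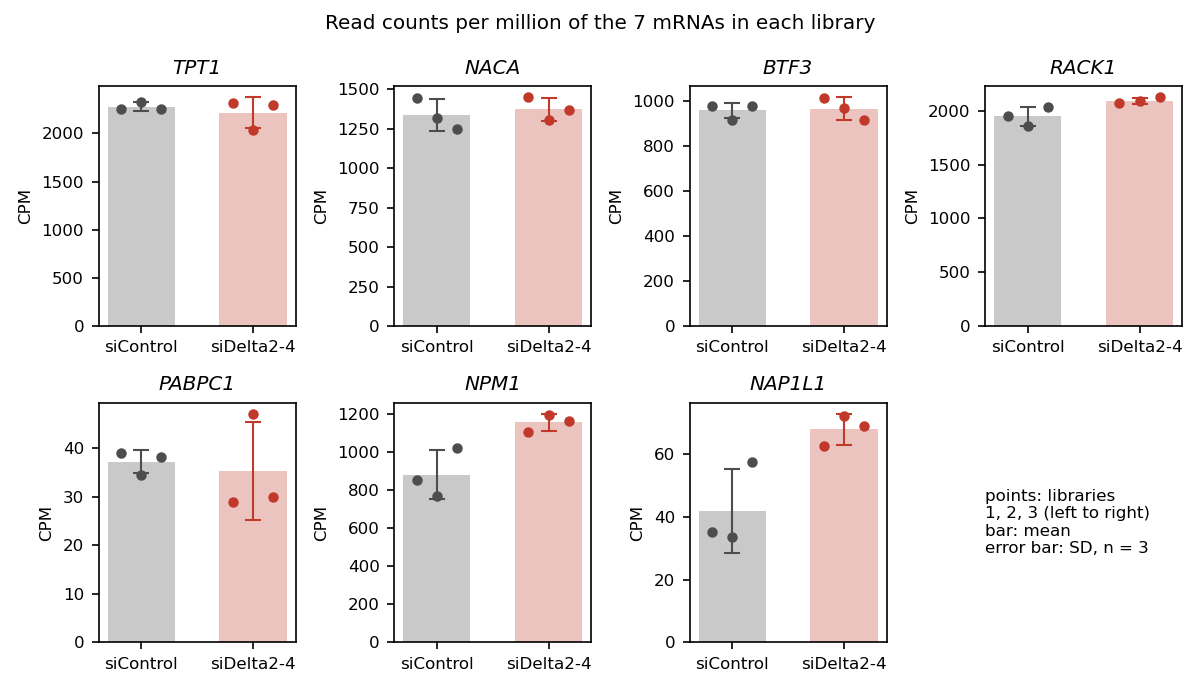
CPM (TMM-scaled) of each mRNA in the 6 libraries, with points for libraries 1 to 3 from left to right, bars for the mean and error bars for the SD (n = 3). NPM1 and NAP1L1 have their lowest siDelta2-4 library above their highest siControl library, as does RACK1 by a smaller distance, and the other 4 mRNAs overlap. Among all tested genes, 14.1% were higher in siDelta2-4 without overlap.

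NPM1 (ENSG00000181163.14, GRCh38 chromosome 5, 171387116 to 171411810, plus strand) encodes nucleophosmin, an abundant nucleolar chaperone that takes part in ribosome assembly and binds histones. Its level was 849.2, 767.2 and 1021 CPM in siControl libraries 1 to 3 and 1105.8, 1193.6 and 1161.8 CPM in siDelta2-4. The groups did not overlap, as for 14.1% of all tested genes in this direction, and siControl library 3 was the nearest to the siDelta2-4 libraries. NPM1 rose from 879 ± 130 to 1154 ± 44.4 CPM (SD, n = 3), a log2 ratio of siDelta2-4 to siControl of 0.39 ± 0.09 (SE, edgeR adjusted p = 0.00763). Without siControl library 3 the log2 fold change was 0.49 (adjusted p = 1.44e-06), and without siControl library 2, its lowest library, the call was lost (0.30, adjusted p = 0.114). With the trend on transcript length removed from each library, the value was 0.245 (adjusted p = 0.0287).

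NAP1L1 (ENSG00000187109.15, chromosome 12, 76036585 to 76084735, minus strand) encodes a chaperone of the nucleosome assembly protein family, which carries histones H2A and H2B. It was a low-count gene with 36, 35 and 60 counts in siControl libraries 1 to 3 and 67, 89 and 90 in siDelta2-4, which correspond to 35.1, 33.6 and 57.5 CPM and to 62.7, 72.3 and 69.1 CPM. As for NPM1, siControl library 3 was the highest of its group and lay close to the lowest siDelta2-4 library. NAP1L1 rose from 42.0 ± 13.4 to 68.0 ± 4.87 CPM (SD, n = 3), a log2 ratio of 0.695 ± 0.19 (SE, edgeR adjusted p = 0.0226). The call was lost without siControl library 2 (0.55, adjusted p = 0.142) and without siDelta2-4 library 2 (0.65, adjusted p = 0.119). Without siControl library 3 the value was 0.97 (adjusted p = 0.000117), and with the length trend removed it was 0.53 (adjusted p = 0.0631).

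NACA and BTF3 encode the alpha and beta subunits of the nascent polypeptide-associated complex, a dimer that binds growing chains as they leave the ribosome. NACA (ENSG00000196531.14, chromosome 12, 56712305 to 56731628, minus strand) had 1446.8, 1316.6 and 1247.1 CPM in siControl libraries 1 to 3 and 1449.5, 1304.9 and 1369.7 CPM in siDelta2-4. BTF3 (ENSG00000145741.17, chromosome 5, 73498408 to 73505667, plus strand) had 976.9, 915.8 and 976.0 CPM in siControl and 1012.2, 967.7 and 913.9 CPM in siDelta2-4. Both genes overlapped between the groups. The fold of NACA was 1.03 (95% interval 0.916 to 1.15, edgeR adjusted p = 0.816) and that of BTF3 was 1.01 (log2 ratio 0.01 ± 0.08, SE, adjusted p = 0.955), and for NACA an increase of more than 1.15-fold lay outside the interval.

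TPT1 (ENSG00000133112.17, chromosome 13, 45333471 to 45341284, minus strand) encodes the translationally controlled tumor protein, whose mRNA is a classic example of the 5′TOP class. It had 2250.2, 2329.3 and 2256.6 CPM in siControl libraries 1 to 3 and 2314.7, 2032.1 and 2298.2 CPM in siDelta2-4. Only siDelta2-4 library 2 lay below the range of the siControl libraries. The fold was 0.972 (95% interval 0.871 to 1.08, edgeR adjusted p = 0.801). With the length trend removed, TPT1 was called lower (log2 fold change -0.22, adjusted p = 0.0486), and this call depended on the length given to the gene, as described with its models.

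RACK1 (ENSG00000204628.12, chromosome 5, 181236897 to 181248096, minus strand) encodes a scaffold protein that sits on the small ribosomal subunit. It had 1958.7, 1858.5 and 2037.3 CPM in siControl libraries 1 to 3 and 2072.2, 2090.6 and 2127.1 CPM in siDelta2-4. The groups did not overlap, as was the case for 26.0% of all tested genes, but the log2 fold change was 0.104 ± 0.075 (SE, edgeR adjusted p = 0.427) and the fold of 1.07 had a 95% interval of 0.966 to 1.20. With library totals as the only scaling, RACK1 was called higher (0.17, adjusted p = 0.0681). With the length trend removed its value was -0.01 (adjusted p = 0.969), so its direction depended on the processing.

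PABPC1 (ENSG00000070756.17, chromosome 8, 100685816 to 100722809, minus strand) encodes the main cytoplasmic poly(A)-binding protein, which links the tail of an mRNA to translation initiation. Its counts were low, at 40, 36 and 40 in siControl libraries 1 to 3 and 31, 58 and 39 in siDelta2-4. The levels were 39.0, 34.5 and 38.3 CPM and 29.0, 47.1 and 29.9 CPM. The siDelta2-4 libraries lay on both sides of the siControl range. The fold of 0.953 had a 95% interval of 0.703 to 1.29 (edgeR adjusted p = 0.881), so changes within this range were not resolved.

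The 7 genes fell into 2 ranges of level. Mean CPM in siControl was 2279 for TPT1, 1951 for RACK1, 1337 for NACA, 956 for BTF3 and 879 for NPM1. It was 42.0 for NAP1L1 and 37.3 for PABPC1. A long read counts once whatever its length, so CPM is the measure of level here. Per kilobase of count-weighted model length, values were 1860 CPM for RACK1, 1060 for BTF3, 773 for NPM1, 658 for NACA and 546 for TPT1. They were 30.2 for NAP1L1 and 19.8 for PABPC1. With the lengths of unannotated models in place of all models, TPT1 had 2400 CPM per kilobase, RACK1 1900, NACA 1730, BTF3 1060, NPM1 1050, NAP1L1 37.4 and PABPC1 24.2. The order of the values per kilobase among the 5 abundant mRNAs depended on the length used. These values do not rank the levels of the mRNAs.

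**Figure D3:**
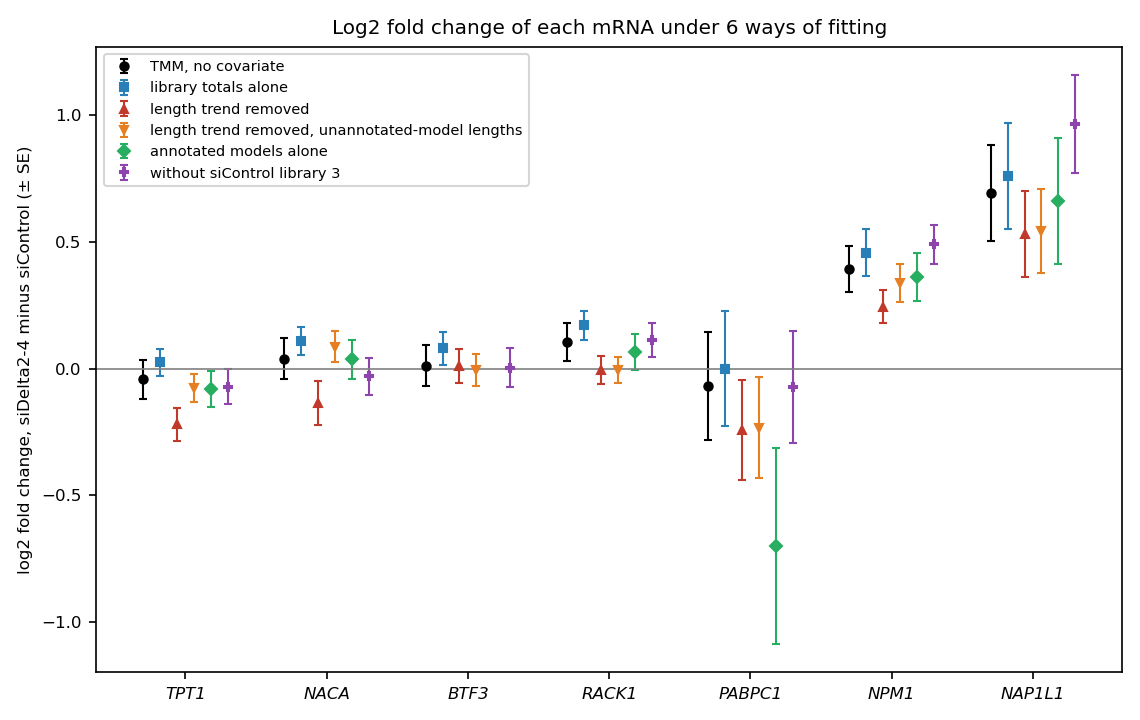
Log2 fold change (siDelta2-4 minus siControl, ± SE) of each mRNA under 6 ways of fitting, with TMM scaling and no covariate as the reported value. NPM1 and NAP1L1 stay above 0 in all 6, the other 5 mRNAs lie near 0 or cross it, and the annotated models of PABPC1 alone (62 counts in all) give -0.70 ± 0.387. BTF3 has no annotated model in the table and so no such point.

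The table counts reads per transcript model, which is either an annotated transcript or a structure that the TALON program added. An incomplete splice match (ISM) holds a continuous part of the junctions of an annotated transcript, either its 3′ part (suffix) or its 5′ part (prefix). Models named NIC combine known splice sites in a new way, and NNC models hold a new splice site. The shares of these classes differed widely among the 7 genes. Annotated transcripts held 92.1% of the counts of TPT1, 92.3% of NPM1, 89.0% of RACK1 and 73.4% of NACA, but 61.0% of NAP1L1, 25.4% of PABPC1 and 0% of BTF3, against 59.5% over all annotated genes. For BTF3, 94.4% of the counts lay on 1 suffix ISM model of 6 exons and 901 nt, TALONT000738595. The share of this model was 94.65% ± 0.36 in siControl and 94.1% ± 0.29 in siDelta2-4 (mean ± SD, n = 3). The annotated protein-coding transcript BTF3-201, which had no counts, also has 6 exons and is 897 nt long. Whether the reads on the suffix model lacked the 5′ part of the mRNA was not tested.

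**Figure D4:**
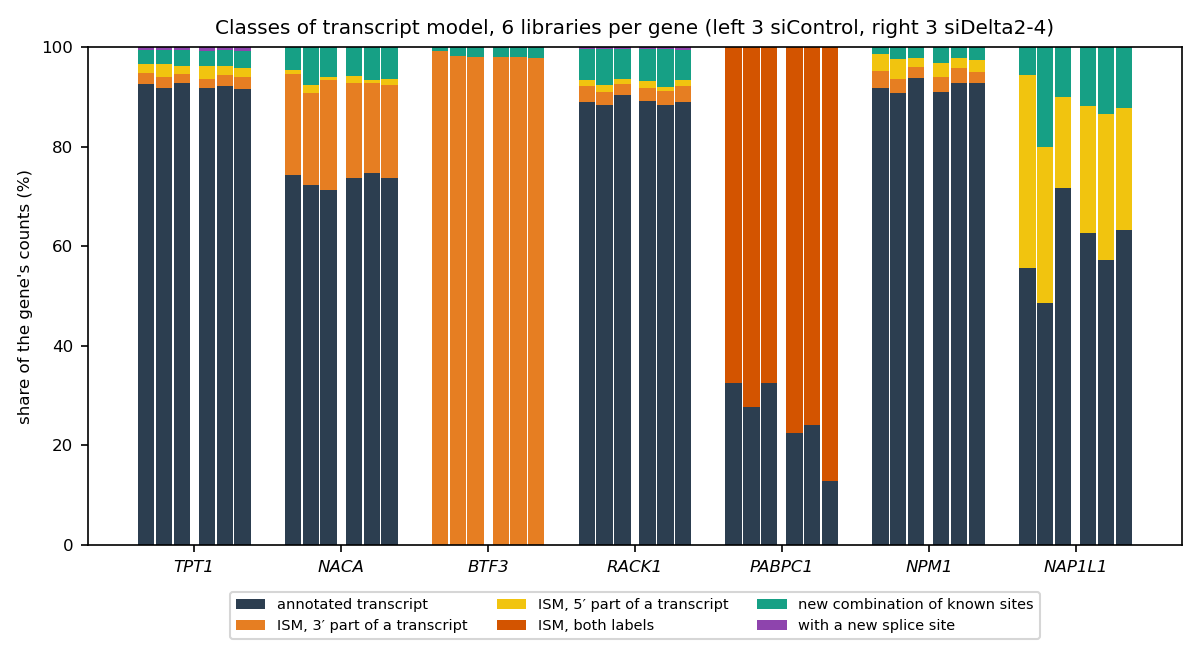
Share of each gene's counts (%) on annotated transcripts, ISM, NIC and NNC models, with 3 siControl bars on the left and 3 siDelta2-4 bars on the right for each gene. BTF3 lies almost wholly on suffix ISM models in every library, and PABPC1 mostly on 1 ISM model with both the suffix and the prefix label.

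The lengths of annotated and unannotated models of the same gene differed most for TPT1 and NACA. Of the TPT1 counts, 87.9% were on TPT1-212, an annotated transcript of 4548 nt and 6 exons that encodes 172 amino acids and has a last exon of 3918 nt. The unannotated models of TPT1, all from 407 to 1167 nt, had a count-weighted length of 937 nt, and those of 6 exons were 1134 to 1167 nt long. When gene lengths were taken from unannotated models, the removal of the length trend gave TPT1 a log2 ratio of -0.08 (edgeR adjusted p = 0.452), without a call. In NACA, 65.5% of the counts were on NACA-201 (2690 nt, 215 amino acids), whose first exon of 1935 nt begins upstream of the RefSeq start printed above, and 16.6% were on a suffix ISM model of 761 nt. With the lengths of all models the length-adjusted NACA value was -0.135 (adjusted p = 0.383), and with those of unannotated models it was 0.09 (adjusted p = 0.437).

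For RACK1, 88.2% of the counts were on RACK1-210 (8 exons, 1098 nt), which Gencode 44 classes as a target of nonsense-mediated decay with a reading frame of 116 amino acids. The protein-coding transcript RACK1-227 (8 exons, 1140 nt, 317 amino acids) shares 6 of its 7 introns with RACK1-210. The remaining intron ends at base 181242173 in RACK1-227 and at base 181242169 in RACK1-210, a difference of 4 bases at the splice donor. No RACK1 count was on RACK1-227 in the table used here. Without siControl library 3, RACK1-210 was called higher (0.159, edgeR adjusted p = 0.09). Whether the reads carried the donor of RACK1-210 could not be read from counts and was not tested. The share of RACK1-210 was 88.28% ± 0.89 in siControl and 88.05% ± 0.33 in siDelta2-4 (mean ± SD, n = 3).

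NPM1 was counted mainly on transcripts of its known protein isoforms. NPM1-201 (11 exons, 294 amino acids) held 73.5% of the counts, NPM1-203 (10 exons, 259 amino acids) held 12.4% and NPM1-202 (10 exons, 265 amino acids) held 2.8%. NPM1-203 ends upstream of the others, at base 171407125 against 171410900 for NPM1-201, with a last exon of its own. NPM1-201 had 593.6, 546.6 and 789.9 CPM in siControl libraries 1 to 3 and 837.8, 922.0 and 873.7 CPM in siDelta2-4. Its log2 fold change was 0.45 ± 0.10 (SE, edgeR adjusted p = 0.00752). NPM1-203 had a log2 ratio of 0.39 ± 0.14 (adjusted p = 0.111), close to that of NPM1-201 but not past the threshold. It was called without siControl library 3 (0.557, adjusted p = 0.00292) and on library totals (0.433, adjusted p = 0.097). The share of NPM1-203 within NPM1 was 12.5% ± 0.67 in siControl and 12.3% ± 0.32 in siDelta2-4, a difference smaller than the SD within siControl.

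NAP1L1 counts were spread over more models. NAP1L1-215 (13 exons, 368 amino acids) held 30.8%, NAP1L1-201 (16 exons, 391 amino acids) held 24.4%, and 2 prefix ISM models of 12 exons and 1 NIC model of 16 exons held 15.4%, 11.4% and 12.2%. NAP1L1-201 had 6, 3 and 15 counts in siControl libraries 1 to 3 and 23, 25 and 20 in siDelta2-4, and rose with a log2 ratio of 1.31 ± 0.38 (SE, edgeR adjusted p = 0.0472), and of 2.11 without siControl library 3 (adjusted p = 0.000382). NAP1L1-215 had 13, 13 and 21 counts and 15, 22 and 32 counts, with a log2 ratio of 0.36 ± 0.30 (adjusted p = 0.572). The share of NAP1L1-201 was 16.75% ± 8.21 in siControl and 28.21% ± 6.05 in siDelta2-4 (mean ± SD, n = 3), and transcript usage in NAP1L1 did not pass the test (edgeR adjusted p = 0.676).

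PABPC1 had only 15 counts in all on PABPC1-201, the 15-exon transcript of 636 amino acids, and 182 of its 244 counts on an 8-exon ISM model of 1500 nt. PABPC1-236, a transcript with a retained intron, had 26 counts. The ISM model had 69.07% ± 2.73 of the gene's counts in siControl and 80.15% ± 6.13 in siDelta2-4 (mean ± SD, n = 3), and was the only PABPC1 model with enough counts to be tested. Its log2 fold change was 0.165 ± 0.235 (SE, edgeR adjusted p = 0.784).

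Of the 101 models, 53 were tested, and 38 of these had a value above 0. The share above 0 over all tested models was not counted, and models of the same gene are not independent. The 3 called models were NPM1-201 and NAP1L1-201, both higher, and TPT1-203, which was lower, against 6.91% called among all 6768 models tested (3.95% higher, 2.97% lower). TPT1-203 (5 exons, 138 amino acids) had 46.3, 54.1 and 48.0 CPM in siControl libraries 1 to 3 and 19.1, 27 and 39.8 CPM in siDelta2-4. The groups did not overlap, as for 26.0% of all tested genes, and the share of all models without overlap was not counted. The log2 fold change of TPT1-203 was -0.76 ± 0.22 (SE, edgeR adjusted p = 0.0449). It held 2.15% ± 0.13 of the TPT1 counts in siControl and 1.26% ± 0.45 in siDelta2-4 (mean ± SD, n = 3). With 1 library left out in turn, NPM1-201 lost its call without siControl library 2, and NAP1L1-201 and TPT1-203 lost theirs without siControl library 1 or 2 and without siDelta2-4 library 1 or 2. Without siControl library 3, 6 models were called, the 3 above with NPM1-203, RACK1-210 and the unannotated NPM1 model TALONT000751259. That fit called 1113 among all models. None of the 6 genes with enough models passed edgeR's gene-level test of transcript usage (adjusted p from 0.667 for TPT1 to 0.981 for RACK1, smallest unadjusted p = 0.111), where 0.618% of all 1132 genes were called and 109 had an unadjusted p under 0.05. Without siControl library 3, usage in NPM1 was called (edgeR adjusted p = 0.0153), in a fit that called 61 genes for usage.

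Genes at the same place could share reads with these mRNAs. The lncRNA gene ENSG00000273149 (chromosome 13, 45340039 to 45341183) lies on the strand opposite TPT1 and had 14814 counts to the 15061 of TPT1, a ratio of 0.984. Its main model was an ISM of 6 exons and 1274 nt with 13190 counts, beside the 13244 counts of the 6-exon TPT1-212. That length exceeds the annotated span of the lncRNA gene, introns included, and where the rest of the model lay was not tested. It had 2129.3, 2197.0 and 2295.0 CPM in siControl libraries 1 to 3 and 2226.7, 2023.2 and 2359.6 CPM in siDelta2-4, with a fold of 0.998 (95% interval 0.893 to 1.12, edgeR adjusted p = 0.992). Nothing states that counting used the strand, so reads of TPT1 and of this gene cannot be told apart, and with their counts added together TPT1 had a log2 ratio of -0.02 (adjusted p = 0.903). RACK1 and NAP1L1 lay opposite genes with 20 counts and 1 count, and no annotated gene lay opposite the other 4. Genes that TALON placed antisense carry no coordinates in the table and were not assigned to these loci. Within PABPC1, the microRNA gene MIR7705, on the same strand, had 56 counts on a 1-exon model of 57 nt.

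Processed pseudogenes are many for these genes, but held few of the reads. Gencode 44 names 49 retrocopies of NPM1, 16 of BTF3, 15 of TPT1, 13 of PABPC1, 8 of NACA and 3 each of RACK1 and NAP1L1. The table held 9 of them, none of RACK1 or NAP1L1, and apart from 2 NPM1 retrocopies each had 1 to 4 counts. The most counted were NPM1P6 with 18 counts and NPM1P27 (chromosome 5, 93682838 to 93683667) with 99 counts, the latter with a log2 ratio of -0.06 (edgeR adjusted p = 0.940). With the counts of retrocopies added, NPM1 had a log2 ratio of 0.39 (adjusted p = 0.00809).

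Other genes of the class and its pathway were read from the same fit. Among 16 other genes outside the ribosome listed as 5′TOP mRNAs, 14 were tested, of which 4 were called, all higher, against 7.0% called higher among all genes. Their median log2 fold change was 0.23, with 12 of 14 above 0, against 2094 of 3888 among all tested genes. The 4 were EIF3F (0.77, edgeR adjusted p = 0.0140) and EIF3H (0.43, adjusted p = 0.0338), subunits of the initiation factor that binds the small ribosomal subunit, EIF4A2 (0.53, adjusted p = 0.0758), an RNA helicase of initiation, and HNRNPA1 (0.25, adjusted p = 0.0934), a splicing regulator. The elongation factor genes EEF1A1 and EEF1G, the most abundant of the list, had values of 0.19 and 0.14 and were not called. The RefSeq starts of EEF1G and VIM, both on the list, had no C at position 1 and so no tract by the definition above. EIF3H and HNRNPA1 were not among the 11 genes of the list with a start in the set of RefSeq starts used here, so their tracts were not read. With the length trend removed, the median of the list was 0.055 and 1 gene was called higher, against 194 of all 3888. With the replicate number as a block, 2 genes were called higher, against 171 of all 3888. With 1 library left out, 1 to 7 genes were called higher. The 7 were without siControl library 3, where 554 of all 4098 genes tested were called higher. The fits without siControl library 1, siControl library 2 and siDelta2-4 library 2 called 1 each, against 154, 115 and 104 among all genes. The list was described with these results known and gives no independent evidence of a direction.

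The cytosolic ribosomal protein genes, which form most of the 5′TOP class, had more calls below 0 than above it: of 83 tested, 11 were called lower and 3 higher, against 5.97% lower and 7.0% higher among all genes, with a median log2 fold change of -0.086. The 11 were RPS28 (-0.56, edgeR adjusted p = 0.0657), RPL36 (-0.53, adjusted p = 0.000185), RPL10 (-0.52, adjusted p = 0.00232), RPS2, RPL13A, RPL38, RPS15, RPS21, RPL32, RPL28 and RPL35. The 3 were RPL26L1 (0.81, adjusted p = 0.00452), RPS26 (0.68, adjusted p = 0.0269) and RPL22L1 (0.485, adjusted p = 0.0151), of which RPL26L1 and RPL22L1 are paralogs of ribosomal proteins. The most abundant, RPLP1 and RPS19, had values of -0.04 (adjusted p = 0.816) and -0.10 (adjusted p = 0.467). The number called lower was 39 without siControl library 3, where 487 of all 4098 genes tested were called lower. It was 4 to 7 with any other library left out, against 90 to 144 among all genes. With the replicate number as a block it was 6, against 128 of 3888 genes. With the length trend removed by lengths of all or of unannotated models it was 26 or 14, against 283 or 291 of 3888. Whether this list differed from the genes outside the ribosome was not tested.

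Of 19 regulators of 5′TOP mRNAs, 11 were in the table and 5 had enough counts to be tested. LARP1 and MTOR, both on the list, were not among the 11. EIF4EBP1, an inhibitor of cap binding that mTORC1 phosphorylates, was the only gene of the list called, and fell from 64.3 ± 2.02 to 46.3 ± 7.64 CPM (SD, n = 3; log2 fold change -0.48, edgeR adjusted p = 0.0868). This was 1 gene of 5, beside 13.0% called among all genes. Its call was lost when any library other than siControl library 3 was left out, on library totals, with the DESeq2 Wald test, without a filter on low counts, with the replicate number as a block, and with the length trend removed by lengths of all models. Without siControl library 3, 2 other regulators were called higher, in a fit that called 554 of all 4098 genes tested higher. CNBP, an RNA-binding protein and the most abundant of the list, had a value of 0.07 (adjusted p = 0.777). The paralogs BTF3L4 and NPM3 had values of 0.11 (adjusted p = 0.739) and 0.29 (adjusted p = 0.238), while NACA2 had 6 counts in all and PABPC4 had 1. Among 19 partners of these proteins, at the ribosome exit or bound to PABPC1, 8 were tested. Without siControl library 3, 3 were called, all higher, as were 554 of all 4098 genes tested. With all 6 libraries 1 was called, near the 13.0% called among all genes. It was SRP19, a protein of the signal recognition particle, which rose from 120 ± 9.75 to 173 ± 3.53 CPM (log2 fold change 0.53, adjusted p = 0.00455). SRP14 and EIF6, the most abundant of this list, had values of 0.07 (adjusted p = 0.716) and 0.09 (adjusted p = 0.700).

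**Figure D5:**
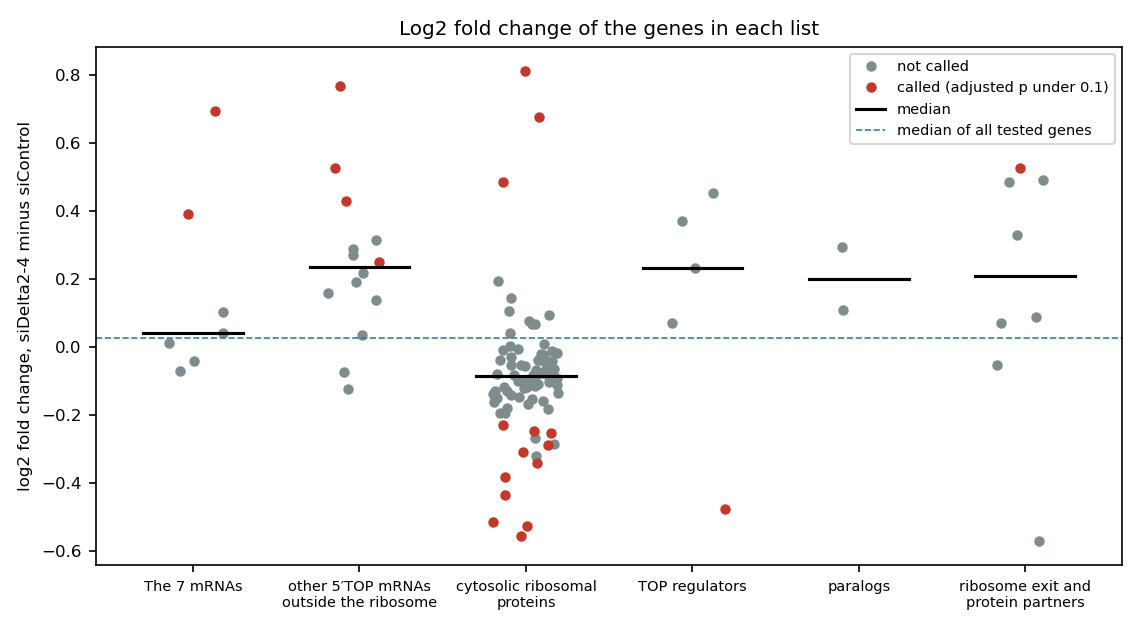
Log2 fold change (siDelta2-4 minus siControl) of each tested gene in the 6 lists, with called genes in red, a black line at the median of each list and a dashed line at the median of all tested genes (0.027). Of the 7 mRNAs, 2 are called, both higher, and the ribosomal proteins have more called genes below 0 (11) than above it (3).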

How the data were processed

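Calu-6 RNA was sequenced as full-length PCR-cDNA on 1 Oxford Nanopore flow cell for 72 h. The authors aligned reads with minimap2 2.14 to GRCh38.p14, used SAMtools 1.13 and TranscriptClean, and deposited raw counts per TALON transcript model on Gencode 44. Their stated minimum of 5 reads in 3 samples was met by all 6398 unannotated models of the file, but not by 11698 of its 15074 annotated ones. The deposited file also holds model lengths and exon numbers (other values). Columns name the siRNA, which assigned them to groups. Totals were 1037468 to 1309241 counts per library. PCR copies carry no molecular identifiers, so counts are not independent molecules.

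Counts were summed per gene and tested with edgeR 4.0.16 (R 4.3.3; TMM, filterByExpr, quasi-likelihood F-test, two-sided) with Benjamini-Hochberg adjustment over all tested genes, called at an adjusted p under 0.1. Models were tested alike, and usage with diffSpliceDGE. Intervals of folds are at 95%. DESeq2 1.42.0, other scalings, filters, a length correction (loess, span 0.4), a replicate block and leaving out each library were alternatives. On simulated data for siDelta2-4 against siControl (3752 genes), 60% of changes of 1.5-fold, 82% of 2-fold and 100% of 3-fold were recovered, with 12.4% false among calls.

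The genes, lists and tests were chosen with earlier results of these data known. Named were the 7 genes, their models with at least 10% of counts or a call, the most counted retrocopy and opposite-strand gene of each, all paralogs in the table, and of other lists the called genes and the 2 most abundant. NPM1-202, PABPC1-201, RACK1-227, BTF3-201, NPM1-203's end and NPM1P6 were described beyond this rule, after their values were seen.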

Additional observations from a re-analysis of the deposited data

How the results depend on the processing

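Over 19 alternatives, NPM1 was called higher in 18 (log2 fold change 0.245 to 0.492, edgeR or DESeq2 adjusted p from 1.44e-06 to 0.114) and NAP1L1 in 17 (0.531 to 0.966, adjusted p from 0.000117 to 0.142). Some of the 19 could hardly move these 2 genes, so the numbers do not measure how robust the calls are. The threshold of 0.05 used the same fit, opposite-strand counts were added to TPT1 alone, and no retrocopy of NAP1L1 was counted. Leaving out 1 library gave 0.30 to 0.492 for NPM1 and 0.552 to 0.966 for NAP1L1, and 0 to 2 called mRNAs of the 7, with 0 without siControl library 2 and 1 without siDelta2-4 library 2. The other 5 mRNAs changed sign in places. BTF3 was at -0.014 with DESeq2 size factors, -0.04 with the DESeq2 Wald test, -0.004 without a filter and -0.005 with the length trend from unannotated models removed, and ranged from -0.029 to 0.048 with 1 library left out. TPT1 was at 0.025 on library totals (-0.079 to 0.017 with 1 library left out) and was called at -0.22 with the length trend removed. PABPC1 was at 0 on library totals (-0.336 to 0.044 with 1 library left out). NACA was at -0.012 with the DESeq2 Wald test and -0.135 with the length trend removed (-0.03 to 0.081 with 1 library left out). RACK1 was called at 0.171 on library totals, and was at -0.006 and -0.005 with the length trend removed by lengths of all and of unannotated models. The cause of these changes was not tested.

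The number of called genes, 504, was 279 with the DESeq2 Wald test (78 higher, 201 lower, against 272 and 232), 304 at an adjusted p under 0.05, 252 on annotated models alone and 194 to 1041 with 1 library left out. Called models numbered 173 to 1113 and called models of the 7 genes 0 to 6 with 1 library left out, and for both the highest was without siControl library 3. Genes called for usage, 7, were 4 on library totals and 1 to 61 with 1 library left out, and of the 7 mRNAs 0 to 1. The summed share of the 7 mRNAs was 0.724% of all counts in siControl and 0.799% in siDelta2-4, a difference of 0.0756 percentage points. Of the counts on annotated models alone it was 1.22% and 1.335%, a difference of 0.1146, and BTF3 added nothing to it. The 2 differences are shares of different totals, so the larger one does not mean a larger change. The median of the other 5′TOP list was 0.055 and 0.061 with the length trend removed by lengths of all and of unannotated models. The median of the partners, 0.209, was 0.278 on library totals, 0.356 with the DESeq2 Wald test, 0.389 without a filter, 0.336 at 10 counts or more in every library, 0.072 and 0.075 with the length trend removed, and 0.143 to 0.261 with 1 library left out. The alternatives with lengths of unannotated models and with opposite-strand counts, and the list medians, were added after seeing the data.

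With the replicate number as a block, 299 genes were called (171 higher, 128 lower) and 1 gene for usage, with NPM1 at 0.40 (edgeR adjusted p = 0.0235) and NAP1L1 at 0.705 (adjusted p = 0.0439). Deviations of libraries with the same number correlated at 0.039, -0.136 and -0.0843, so the numbers were not treated as pairs. BTF3 had no value on annotated models alone, and DESeq2 gave no adjusted p for PABPC1. At 31 to 90 counts per library, changes of NAP1L1 and PABPC1 were measured with SEs of 0.19 and 0.213, against 0.075 to 0.091 for the other 5.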
